A study of Homo sapiens with 18 samples.

Results

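The genes examined here code for 10 surface proteins through which natural killer cells recognise or grip a target cell. They were taken by symbol from the deposited RNA table: MICA, MICB, ULBP1, ULBP2, ULBP3, NCR3LG1, PVR, PVRL2 (now NECTIN2), CD58 and ICAM1. All 10 symbols were found among the table's 55766 genes, and 9 of them held enough counts to be tested, with ULBP3 left out. The choice went by symbol and set no threshold on a measured value, but earlier results of these data were known when it was made. The libraries came from K562, an established human line of chronic myeloid leukaemia that serves as a standard target of natural killer cells. A B2M:tdTomato transgene was present in all cells, the untreated ones included. The B2M protein is the light chain shared by MHC class I molecules, and tdTomato fluoresces red. Per the labels, 1 group was silenced with TALE, another with dCas9, and the remaining group was untreated. The silenced cells had received a cocktail of plasmids coding for 3 different proteins that the labels abbreviate as ATR, and those given dCas9 also received a plasmid for the sgRNA. The series' design text gives the B2M promoter as the target of the directed DNA methylation. The labels state neither the time from treatment to collection nor whether the cells were clones, sorted or bulk. Each group had 3 RNA-seq and 3 MeDIP-seq libraries, and nothing in the labels says that they came from separate cultures, so p-values measure the spread between these libraries, which may be technical.

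A natural killer cell weighs activating against inhibitory contacts before it kills. The activating receptor NKG2D binds the MHC class I-like proteins MICA, MICB and the ULBP family, which many cells raise under stress, infection or transformation. NKp30 binds B7-H6, the product of NCR3LG1, and DNAM-1 binds PVR and nectin-2, the product of PVRL2. CD58 is the partner of CD2, and ICAM1 is the partner of the integrin LFA-1; both hold the 2 cells together. MHC class I molecules, which need the B2M light chain on the cell surface, engage the inhibitory receptors, and K562 cells are known for carrying little of them.

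The promoters of the ligand genes held more CpG, the dinucleotide at which human DNA is methylated, than the median promoter. The 250 bases before the RefSeq start of each gene (build GRCh38.p14) held between 17 CpG sites in MICA and 31 in CD58. The median over 35116 RefSeq promoters of that length was 11 sites. Of these promoters 39% held 17 or more, so such a number is common. The motif CG, which reads the same on both strands, was present in 93.9%. The 4 promoters shown are those of CD58, whose RNA level per length was the highest of the 10 genes, and of the 3 ULBP genes, whose levels were low to undetectable. They allow the CpG content of an active and of a nearly silent ligand gene to be read side by side. The remaining promoters held 28 sites in NCR3LG1, 27 in PVR, 23 in ICAM1, 19 in PVRL2, 18 in MICB and 17 in MICA. PVR was among the lowest genes in RNA level, and PVRL2 and MICB were among the highest. The number of sites thus did not run in the order of the RNA levels. Capitals mark CG, and each sequence runs from 5′ to 3′ on the gene's strand.
CD58, chr1:116571027-116571276, minus strand, 31 CpG sites: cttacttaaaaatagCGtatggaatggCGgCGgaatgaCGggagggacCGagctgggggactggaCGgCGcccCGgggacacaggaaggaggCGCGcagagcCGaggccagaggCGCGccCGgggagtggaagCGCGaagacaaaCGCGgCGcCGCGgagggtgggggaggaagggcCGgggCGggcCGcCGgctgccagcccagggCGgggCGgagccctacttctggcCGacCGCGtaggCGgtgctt
ULBP1, chr6:149963693-149963942, plus strand, 20 CpG sites: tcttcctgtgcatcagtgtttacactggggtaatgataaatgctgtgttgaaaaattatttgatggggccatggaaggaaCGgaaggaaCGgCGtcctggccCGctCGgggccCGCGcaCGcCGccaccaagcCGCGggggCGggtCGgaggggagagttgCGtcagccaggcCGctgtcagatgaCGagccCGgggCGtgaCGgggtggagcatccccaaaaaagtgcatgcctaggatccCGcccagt
ULBP2, chr6:149941764-149942013, plus strand, 18 CpG sites: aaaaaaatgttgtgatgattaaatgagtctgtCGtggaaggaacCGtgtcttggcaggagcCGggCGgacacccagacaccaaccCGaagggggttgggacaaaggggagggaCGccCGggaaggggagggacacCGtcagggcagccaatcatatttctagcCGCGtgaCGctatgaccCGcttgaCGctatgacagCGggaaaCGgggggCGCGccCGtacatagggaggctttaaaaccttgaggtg
ULBP3, chr6:150069122-150069371, minus strand, 22 CpG sites: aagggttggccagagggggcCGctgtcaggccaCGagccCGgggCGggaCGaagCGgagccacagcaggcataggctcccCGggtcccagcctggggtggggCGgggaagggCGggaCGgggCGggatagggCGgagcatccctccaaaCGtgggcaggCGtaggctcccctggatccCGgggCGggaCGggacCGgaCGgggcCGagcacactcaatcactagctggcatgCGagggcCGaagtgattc
The barely counted ULBP3 thus had more CpG sites in this window than ULBP1 and ULBP2 had.

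The RNA libraries held between 8460076 and 12050554 counts, and 13786 genes were tested. As a check of the labels, B2M_tomato, the table's entry for the transgene, fell by 4.65 on the log2 scale (SE 0.16) with TALE and by 4.54 (SE 0.16) with dCas9 (edgeR adjusted p 2.84e-12 and 4.05e-12). B2M itself had 79, 48 and 54 counts in the untreated libraries and 2 to 7 in the silenced ones, so it passed the filter on low counts through the untreated libraries alone, and the check rests on B2M_tomato. All 11 markers of the erythroid-like K562 line had 10 or more counts in every library, led by the globin genes HBG2, HBE1 and HBG1. Of 16 natural killer cell markers, 11 stayed under 10 counts in every library. KLRK1, the gene of NKG2D itself, had 0 counts in all 9, and CD2 had 1 count in all. The markers that did reach 10 counts were CD96, CD226, NCR1, PRF1 and HCST. CD226, the gene of DNAM-1, had 10 to 26 counts a library, so not all receptor genes were silent. The untreated replicate 3 library stood apart in having counts in 33110 genes, against 21714 to 24963 in the other 8.

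The ligand genes spanned a wide range of RNA levels in untreated cells. Levels are given as RPKM, that is CPM (counts scaled to library size with TMM factors) divided by the length of the gene's exons in kb, with the SD over 3 libraries. The median tested gene with a known length stood at 4.91 RPKM, and 5 ligand genes were above it. CD58, the adhesion ligand of CD2, was the highest at 30.5 ± 4.9 RPKM (SD, n = 3). PVRL2, a ligand of DNAM-1, followed at 20.4 ± 3.3. MICB stood at 12.6 ± 0.43 and NCR3LG1, the B7-H6 gene, at 11.9 ± 0.20. ICAM1 stood at 7.49 ± 0.99. The other 5 were below the median gene. MICA had 3.08 ± 0.49 RPKM, ULBP1 1.48 ± 0.32, ULBP2 0.648 ± 0.383 and PVR 0.535 ± 0.092.

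NKG2D and DNAM-1 each had ligand genes of high and of low level. In bulk RNA, fewer cells with a transcript and less of it in each cell cannot be told apart. Within the NKG2D ligands, the untreated mean of MICB was 4.1 times that of MICA and 8.55 times that of ULBP1. Within the DNAM-1 ligands, PVRL2 was 38.2 times PVR. Neighbours in the order did not overlap between the 3 untreated libraries, except that ULBP2 (0.392 to 1.09 RPKM) and PVR (0.429 to 0.594) did. The gap between MICB (12.4 to 13.1) and NCR3LG1 (11.7 to 12.1) was small. The TALE and the dCas9 means fell in the same order as the untreated means. With the length of the longest transcript in place of all exons, ULBP2 and PVR changed places, at 0.648 and 0.863 RPKM. By that length MICA stood at 5.25 RPKM and MICB at 14.6, so the ratios above depend on the length used.

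**Figure D1:**
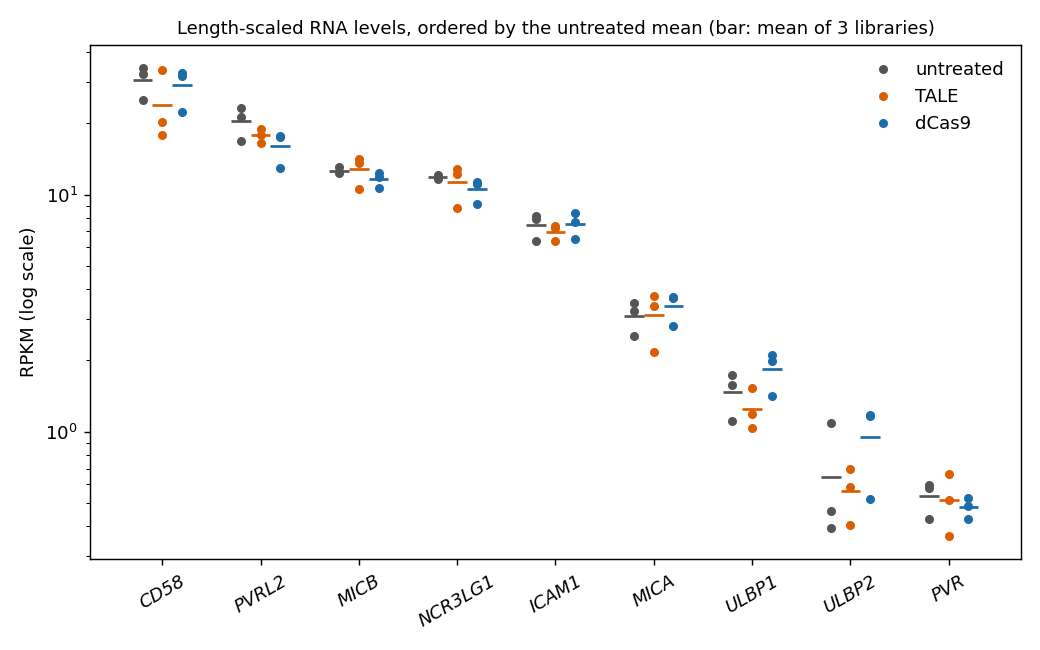
RNA level per exon length (RPKM, log scale) of the 9 tested ligand genes in each of the 3 untreated, 3 TALE and 3 dCas9 libraries; points are libraries and bars are group means. The genes run from CD58 at 30.5 RPKM to PVR at 0.535 RPKM in untreated cells. Across the 9 libraries of each gene, the ranges of CD58 and PVRL2, of PVRL2 and MICB, and of MICB and NCR3LG1 overlap. So do the ranges of ULBP1 and ULBP2, and those of ULBP2 and PVR.

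No ligand gene changed past the threshold with either silencing agent. In the contrasts of TALE with untreated and of dCas9 with untreated, 0 of 9 were called by edgeR at an adjusted p under 0.05, where 0.0218% and 0.029% of all tested genes were. The numbers between TALE and dCas9 were 0 of 9 against 0%, and for the mean of both silenced groups against untreated 0 of 9 against 0.0363%. The lowest adjusted p of a ligand gene was 0.76 with TALE, 0.744 with dCas9, 0.759 between them and 0.747 for the silenced mean. DESeq2 called 0 as well, where it called 0.0653%, 0.215%, 0% and 0.261% of all genes. At an unadjusted p under 0.05, 0, 1, 1 and 1 of the 9 passed, where 7.15%, 5.93%, 6.38% and 6.35% of all tested genes did. The median log2 fold change of the 9 was -0.09 with TALE and -0.07 with dCas9, and that of all tested genes was 0.0024 and -0.0031.

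A background of few calls can hide small changes, so the intervals matter. With TALE, the 95% interval stayed within 2-fold in either direction for 8 of 9 ligand genes and within 1.5-fold for 6. With dCas9 the numbers were 8 and 5. The gene that was not within 2-fold in either comparison was ULBP2, the least counted of those tested. The intervals of ULBP1 and CD58 with TALE, and of ULBP1, PVR and PVRL2 with dCas9, reached past 1.5-fold, so a change of that size is not excluded for these genes.

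**Figure D2:**
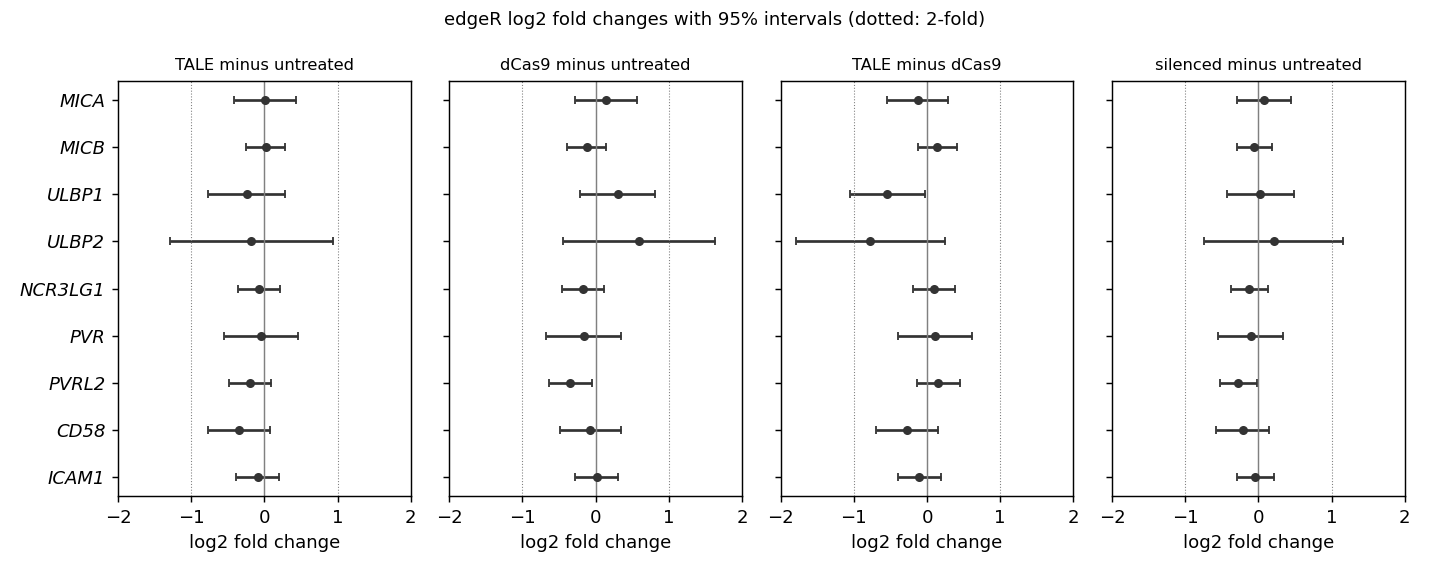
Log2 fold change of each tested ligand gene (points) with its 95% interval (bars) in the 4 comparisons, from edgeR; dotted lines mark 2-fold. The intervals of PVRL2 for dCas9 and for the silenced mean, and of ULBP1 for TALE against dCas9, lie wholly below 0 before adjustment over all genes; all others cross 0.

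Among the NKG2D ligands, MICA and MICB are neighbours in the MHC region of chromosome 6. MICA lies at chr6:31367561-31383092 and MICB at chr6:31462658-31478901, both on the plus strand of hg19. MICA had 12.4, 9.76 and 13.4 CPM in untreated replicates 1, 2 and 3, 8.33, 13.1 and 14.5 with TALE, and 14.2, 10.8 and 14.3 with dCas9. The lowest and the highest MICA library were both TALE libraries, and all groups overlapped. For MICA the log2 fold change was 0.01 (SE 0.20) with TALE and 0.14 (SE 0.20) with dCas9, with adjusted p of 0.998 and 0.992 in edgeR.

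MICB was more abundant and steadier. It had 36.7, 34.6 and 34.7 CPM in the untreated replicates, 29.6, 39.7 and 38.0 with TALE, and 34.5, 29.8 and 33.1 with dCas9. The 3 dCas9 libraries were all below the 3 untreated libraries, the nearest at 34.5 against 34.6 CPM, while the TALE libraries lay on both sides. The log2 fold change with dCas9 was -0.12 (SE 0.13, 95% interval -0.39 to 0.15, edgeR adjusted p 0.974). Of the 9 ligand genes, 2 had dCas9 and untreated libraries that did not overlap, MICB and NCR3LG1, where 11.6% of all tested genes did. The exact two-sided permutation p was 0.1 for both, the smallest that 3 libraries against 3 can give. In the other comparisons 0 of 9 were free of overlap, against 12.5% of all tested genes with TALE, 9.38% between TALE and dCas9 and 3.54% for the silenced mean.

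The ULBP proteins are MHC class I-like NKG2D ligands without the domain that binds B2M. Their genes lie in a cluster on chromosome 6 (hg19), with ULBP2 at chr6:150263150-150270371 and ULBP1 at chr6:150285079-150294851 on the plus strand, and ULBP3 at chr6:150382189-150390257 on the minus strand. ULBP1 had 5.59, 3.58 and 5.08 CPM in untreated cells, 3.33, 4.93 and 3.80 with TALE, and 6.39, 4.56 and 6.74 with dCas9. These rest on 29 to 69 counts a library. The TALE libraries tended to the low end and the dCas9 libraries to the high end, with overlap between all groups. Against untreated cells the log2 fold change was -0.24 (SE 0.25) with TALE and 0.30 (SE 0.25) with dCas9. The difference between TALE and dCas9 was -0.54 (SE 0.24, 95% interval -1.06 to -0.03), with an unadjusted p of 0.0396 and an adjusted p of 0.759 in edgeR, and an exact permutation p of 0.2.

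ULBP2 was near the limit of what was counted. Untreated replicates 1, 2 and 3 held 6, 5 and 12 counts of it, against 8, 7 and 10 with TALE, and 17, 15 and 7 with dCas9. ULBP2 passed the filter on low counts through 3 libraries, untreated replicate 3 and dCas9 replicates 1 and 2, which are also its highest in CPM. With TALE its log2 fold change stood at -0.18 (SE 0.53, edgeR adjusted p 0.97), with dCas9 at 0.60 (SE 0.49, 95% interval -0.44 to 1.64, adjusted p 0.964). Without untreated replicate 3, the library with counts in the most genes, these became 0.39 and 1.16, so that with TALE the sign turned within its error. In addition, 32.6% of the 50-base windows of the ULBP2 exons occur in another gene, chiefly the related RAET1L and RAET1G, and the rule for reads that match several genes is not given in the sources used here. The counts of ULBP2 are uncertain for that reason.

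ULBP3 was hardly detected. It had 0 counts in 7 libraries, 1 count in untreated replicate 3 and 2 counts in dCas9 replicate 3. A count of 0 allows up to 0.231 to 0.371 CPM in those libraries, taking 3 counts as the limit and covering counting error only. All 9 libraries together gave 0.0325 CPM (exact Poisson interval 0.0067 to 0.095, counting error only). No fold change is given for it. The other members of the same family, RAET1E, RAET1G and RAET1L, were also too low to be tested, at 0 to 0.605 CPM summed over the 3 in each library.

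NCR3LG1, the gene of the NKp30 ligand B7-H6, lies at chr11:17373347-17398888 on the plus strand of hg19. It was among the most counted ligand genes, with 601 to 1013 counts a library. NCR3LG1 had 76.7, 74.3 and 75.9 CPM in untreated cells, 81.8, 78.1 and 55.9 with TALE, and 58.4, 70.7 and 72.2 with dCas9. The untreated libraries lay within 2.45 CPM of each other. The 3 dCas9 libraries were all lower, and TALE replicate 3 was the lowest of all 9 while the other TALE libraries were the highest. Its log2 fold change stood at -0.07 (SE 0.14, edgeR adjusted p 0.94) with TALE and -0.17 (SE 0.14, 95% interval -0.46 to 0.11, adjusted p 0.959) with dCas9. Without TALE replicate 3 the TALE value was 0.08, again within its error.

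The DNAM-1 ligands PVR and PVRL2 both lie on the plus strand of chromosome 19, at chr19:45147098-45169430 and chr19:45349432-45392480 (hg19). PVR, the poliovirus receptor that is often raised on tumour cells, was low here. It had 6.20, 6.06 and 4.48 CPM in untreated cells, 5.39, 6.94 and 3.80 with TALE, and 5.47, 5.07 and 4.46 with dCas9. All groups overlapped, and the log2 fold changes were -0.05 (SE 0.24) with TALE and -0.16 (SE 0.24) with dCas9, with edgeR adjusted p of 0.986 and 0.994. Of the PVR exon bases, 20.6% overlap another annotated gene, so part of its counts may be assigned elsewhere.

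PVRL2 had the lowest unadjusted p of the ligand genes in any comparison. It had 62.8, 79.8 and 86.8 CPM in untreated cells, 62.0, 70.9 and 67.0 with TALE, and 65.4, 48.6 and 65.9 with dCas9. Untreated replicate 1 lay inside the range of both silenced groups, and the other 2 untreated libraries were above all 6 silenced ones. The log2 fold change with dCas9 was -0.35 (SE 0.14, 95% interval -0.64 to -0.05), with an unadjusted p of 0.0236 and an adjusted p of 0.744 in edgeR. The exact permutation p of that comparison was 0.3. With TALE it was -0.20 (SE 0.14, edgeR adjusted p 0.805). For the mean of both silenced groups it was -0.27 (SE 0.12), with an unadjusted p of 0.0367, an adjusted p of 0.747 and an exact permutation p of 0.143, where 6 libraries against 3 can go down to 0.0119. The difference did not hold up after adjustment over all genes.

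The adhesion ligands were CD58, at chr1:117057156-117113661 on the minus strand, and ICAM1, at chr19:10381769-10397291 on the plus strand (hg19). CD58 had 44.6, 61.0 and 57.7 CPM in untreated cells, 31.8, 36.1 and 60.1 with TALE, and 58.1, 56.6 and 40.0 with dCas9. TALE replicates 1 and 2 were below all other libraries, while TALE replicate 3 lay near the top. The log2 fold change with TALE was -0.35 (SE 0.20, 95% interval -0.77 to 0.07, edgeR adjusted p 0.76). Leaving out TALE replicate 3 moved it to -0.68, with an edgeR adjusted p of 0.088, and moved the difference from dCas9 from -0.28 to -0.60 (adjusted p 0.125). Leaving out TALE replicate 1 instead moved the 2 values the other way, to -0.18 against untreated and -0.10 against dCas9. The size of the CD58 value thus depends on which library is left out, and no version passed the threshold. With dCas9 the log2 fold change of CD58 was -0.07 (SE 0.20, adjusted p 0.996).

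ICAM1 varied the least of the 9 tested genes, by the ratio of its highest to its lowest library. It had 21.9, 28.2 and 27.4 CPM in untreated cells, 24.99, 25.4 and 22.0 with TALE, and 22.4, 26.5 and 29.0 with dCas9. That ratio was 1.32, and all groups overlapped. The log2 fold changes were -0.09 (SE 0.14) with TALE and 0.01 (SE 0.14) with dCas9, with edgeR adjusted p of 0.917 and 0.999. Of the ICAM1 exon bases, 25.4% overlap another annotated gene, chiefly an antisense one, and the use of strand in counting is not given in the sources used here.

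**Figure D3:**
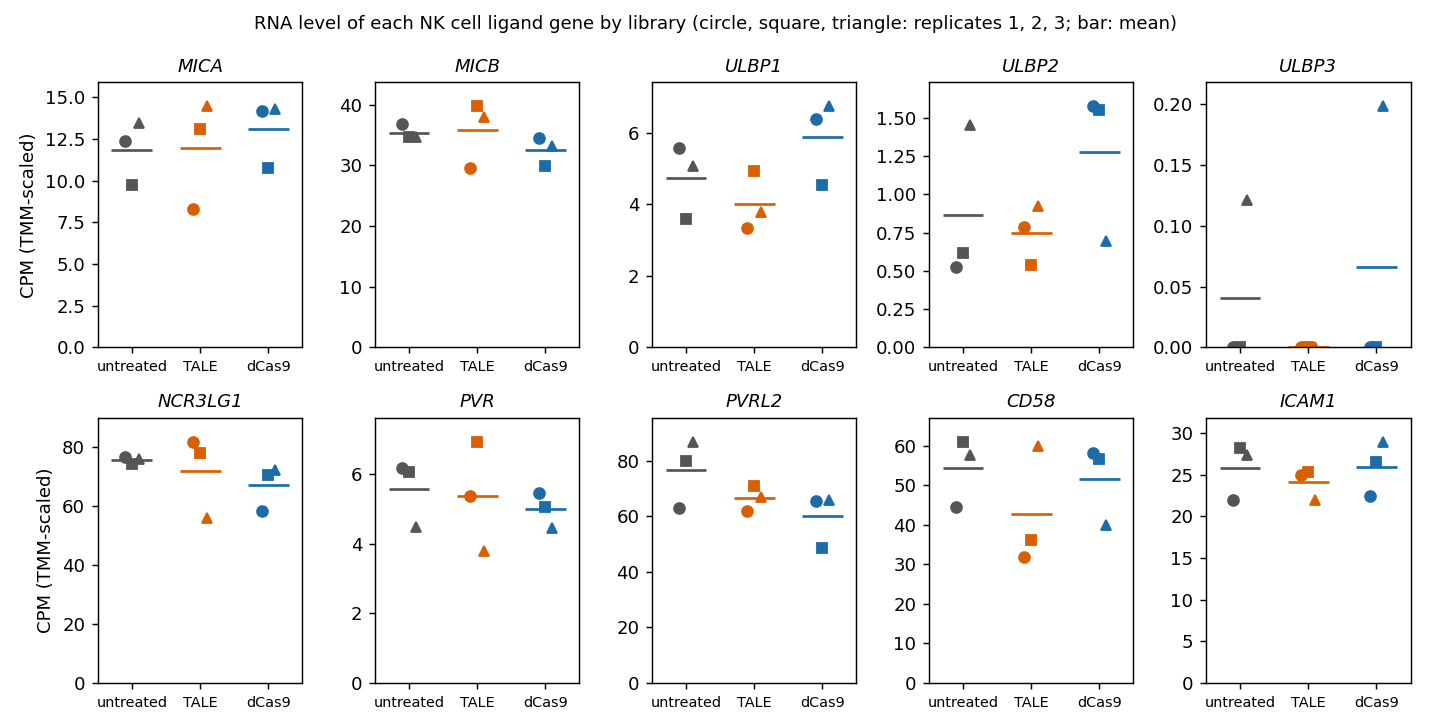
RNA level (CPM after TMM scaling, each panel from 0) of the 10 ligand genes in each library, by group; circles, squares and triangles are replicates 1, 2 and 3 and bars are group means. The 3 dCas9 libraries are below the 3 untreated ones for MICB and NCR3LG1, TALE replicate 3 departs from the other TALE libraries for CD58 and NCR3LG1, and the panel of ULBP3 rests on 3 counts in all.

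Genes around the same contacts were followed in 8 further lists with 56 genes, of which 32 could be tested. They covered other NKG2D ligands, ligands of other activating receptors, nectins, adhesion molecules, ligands of inhibitory receptors, death receptors, proteins that shed ligands and regulators of NKG2D ligand genes. By edgeR, 0 of the 32 were called in any of the 4 comparisons. At an unadjusted p under 0.05, 0 were higher and 3 lower with TALE (ICAM5, CD47 and HLA-C), and 2 were higher and 2 lower with dCas9 (VIM and LGALS9, CD47 and HLA-C), the same numbers and genes as for the silenced mean. Between TALE and dCas9, 1 was higher (TNFRSF1A) and 2 lower (ICAM5 and CLEC2D). Of these names, ICAM5, CD47, LGALS9 and CLEC2D were picked out after their values were seen. The shares of all tested genes at that p are 7.15% with TALE, 5.93% with dCas9, 6.38% between them and 6.35% for the silenced mean. DESeq2 called 1 of the 32, HLA-C, with dCas9 (0.215% of all genes) and for the silenced mean (0.261%).

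HLA-C codes for an MHC class I heavy chain that pairs with B2M and binds inhibitory receptors of natural killer cells. It had 6.02, 6.92 and 6.41 CPM in untreated cells, 2.74, 4.16 and 5.00 with TALE, and 3.24, 2.28 and 2.78 with dCas9. Every silenced library was below every untreated one. Of all tested genes, 3.54% had silenced and untreated libraries that did not overlap, in either direction. HLA-C differed by a log2 fold change of -0.69 (SE 0.24, edgeR adjusted p 0.585) with TALE and -1.21 (SE 0.26, edgeR adjusted p 0.179, DESeq2 adjusted p 0.0348) with dCas9. HLA-C rests on 22 to 69 counts a library, and HLA genes are so variable and alike that their counts are uncertain. Of the other inhibitory ligands, HLA-E had 6.99 ± 0.87 RPKM in untreated cells, and HLA-B had 0.434 ± 0.107.

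In the other lists the highest levels belonged to genes with broad roles beside ligand function. Among ligands of other activating receptors, untreated cells had 96.3 RPKM of PCNA, 62.3 of VIM and 41.5 of BAG6, which is a further NKp30 ligand when released from the cell. VIM had 335, 333 and 300 CPM in the untreated replicates and 376, 425 and 511 with dCas9, a log2 fold change of 0.44 (SE 0.14, edgeR adjusted p 0.549). Among adhesion genes ICAM4, an erythroid ICAM, had 20.6 RPKM, the complement inhibitor CD59 had 9.14 and ICAM3 had 7.56. None of the nectins PVRL1, PVRL3 and PVRL4 passed the filter. Of the death receptors TNFRSF10A, a TRAIL receptor, was highest at 8.94 RPKM. PDIA6 at 61.0 RPKM and ADAM10 at 7.02 led the genes involved in shedding, and MYC at 60.3 led the regulators, with 9 of 9 tested and 0 called.

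MeDIP-seq, which sequences DNA captured by an antibody against methylated cytosine, gave a second view of the same genes. The libraries held between 2529729 and 4492751 counts in the listed regions. In the window from 2 kb before each gene to its end there were 44 regions at 8 of the 10 genes, most of them (36) in introns. PVRL2 had 13, CD58 8, MICA 6, NCR3LG1 6, ICAM1 5, PVR 3, MICB 2 and ULBP2 1, while ULBP1 and ULBP3 had 0. A region is listed only where some library had a peak, so that a stretch without one has no value here. Of the 44, 12 were covered by a peak in all 9 libraries, 7 of these in PVRL2.

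The start of a gene is where promoter methylation would be read. A listed region lay within 2 kb of the reference start at 4 of the 10 genes, MICA, MICB, PVRL2 and CD58, and within 1 kb at MICA alone. Of 19894 protein-coding starts, 42.9% had one within 2 kb, close to the share of the ligand genes. Libraries with a deposited peak within 2 kb of the start numbered 7 of 9 for NCR3LG1, 6 for MICB, 5 for ICAM1, 4 for PVRL2, and 1 each for MICA and CD58. There were 0 for PVR and the 3 ULBP genes, whose starts had no peak within 2 kb in any library. Of these peaks those with a −log10 q of 3 or more were in 2 libraries for NCR3LG1 and ICAM1, 1 for MICB, PVRL2 and CD58, and 0 for MICA. The starts of NCR3LG1 and ICAM1 had no listed region within 2 kb, so no counts that near were compared between groups there.

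**Figure D4:**
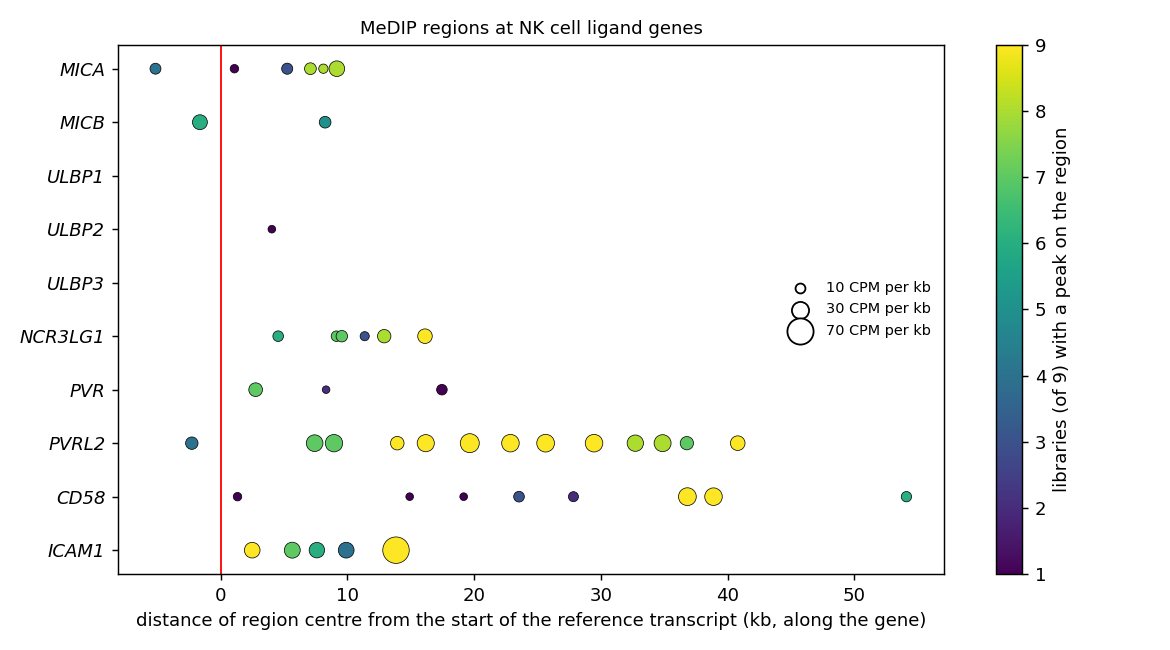
Position of the 44 MeDIP regions at ligand genes, as distance of the region's centre from the start of the reference transcript in kb; circle area is the mean CPM per kb over 9 libraries and colour is the number of libraries with a peak there. PVRL2 has a row of regions with peaks in 7 to 9 libraries inside the gene, ULBP1 and ULBP3 have none, and the largest circle, at ICAM1, is a region of only 51 bases.

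No region at a ligand gene changed past the threshold. Of the 44, 30 held enough counts to be tested, and 0 were called by edgeR with TALE, with dCas9, between them or for the silenced mean. Over all 105652 tested regions, the shares called were 0%, 0.000947%, 0.000947% and 0%. The unadjusted p was under 0.05 for 0, 1, 0 and 0 of the 30, where 4.74%, 4.69%, 4.47% and 4.88% of all regions passed. The 1 region lay on an exon and intron of PVRL2 at chr19:45375070-45375333. Its CPM were 11.4, 5.94 and 12.5 in untreated cells and 7.51, 5.19 and 6.48 with dCas9, a log2 fold change of -0.68 (SE 0.33, unadjusted p 0.0411, edgeR adjusted p 1), and the groups overlapped.

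The region near the start of MICA is printed because it was the only listed one within 1 kb of the start of a ligand gene. It is given on the plus strand of hg19, with CG in capitals.
MICA, intron, chr6:31372317-31372610, 5 CpG sites: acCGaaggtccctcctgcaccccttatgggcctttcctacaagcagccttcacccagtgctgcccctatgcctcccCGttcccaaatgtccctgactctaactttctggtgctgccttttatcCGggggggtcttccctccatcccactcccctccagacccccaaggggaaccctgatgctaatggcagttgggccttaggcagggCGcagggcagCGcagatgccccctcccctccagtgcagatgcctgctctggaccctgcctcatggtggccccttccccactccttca
The MICA region begins 945 bases into the gene from the reference start, had 2 to 12 counts a library and a peak in 1 library, and was too low to be tested. The MICB region nearest the start had a peak in 6 libraries. Its CPM were 4.30, 3.82 and 4.67 in untreated cells, 4.16, 5.89 and 3.02 with TALE, and 5.93, 7.01 and 7.34 with dCas9. The 3 dCas9 libraries were above all the others, with a log2 fold change of 0.65 against untreated (SE 0.40, 95% interval -0.14 to 1.45, edgeR adjusted p 1). How many of all MeDIP regions separate in this way was not computed, so no conclusion is drawn from the separation. Over the same groups the RNA of MICB was lower by 0.12 on the log2 scale, and neither difference passed its test.

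The only listed region at a ULBP gene, in an intron of ULBP2, had 6, 15 and 10 counts with TALE, 2, 0 and 7 in untreated cells and 2, 2 and 1 with dCas9. The CPM of the 3 TALE libraries (2.77, 5.89 and 2.75) were above those of the other 6, whose highest was 2.18. Here too the share of all regions with such a separation was not computed. The region had a peak in 1 library and too few counts to be tested. ULBP2 RNA in the same group, at 8, 7 and 10 counts, overlapped with both other groups. In the window from 2 kb before the gene, the NCR3LG1 region nearest the start was at chr11:17377810-17377973, 4463 bases from that start. A window from 5 kb before the gene holds 1 further region, which was not compared. The NCR3LG1 region at 4463 bases had 9, 7 and 5 counts with TALE, 4, 2 and 2 in untreated cells and 7, 4 and 5 with dCas9. It was likewise too low to be tested.

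The best covered regions of PVRL2, CD58, ICAM1, MICA, NCR3LG1 and PVR did not change past the threshold, some of them with wide intervals. The region of highest mean CPM in PVRL2, an intron at chr19:45372023-45372828, had 25.5, 28.0 and 29.9 CPM in untreated cells, 28.6, 24.3 and 25.3 with TALE, and 21.7, 20.5 and 24.6 with dCas9. The dCas9 libraries were all below the untreated ones, with a log2 fold change of -0.33 (SE 0.19, edgeR adjusted p 1). For this separation, again, no share over all regions was computed. That of CD58, an intron at chr1:117074499-117075005, had 15.7, 15.7 and 22.7 CPM in untreated cells, 19.9, 13.0 and 13.2 with TALE, and 11.1, 16.4 and 16.4 with dCas9. That of ICAM1, an intron at chr19:10384031-10384548, had 12.3, 13.2 and 12.1 in untreated cells, 12.0, 16.1 and 16.5 with TALE, and 9.09, 13.8 and 12.1 with dCas9. The groups overlapped in CD58 and ICAM1, and the 95% intervals of the CD58 values reached from -0.75 to 0.22 with TALE and from -0.78 to 0.18 with dCas9. The best covered region of MICA (chr6:31379009-31379954) had log2 fold changes of -0.11 (SE 0.33) and -0.24 (SE 0.33), and that of NCR3LG1 (chr11:17389285-17389666) 0.03 (SE 0.33) and 0.06 (SE 0.32), with TALE and with dCas9. That of PVR (chr19:45155082-45155985) had 0.30 (SE 0.40) and -0.05 (SE 0.41). The median log2 fold change of the 30 tested regions was -0.10 with TALE and -0.09 with dCas9, and that of all tested regions was -0.001 and 0.001.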

How the data were processed

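RNA-seq and MeDIP-seq of K562 cells were read from the deposited tables. Per the file headers the deposited values are raw counts per gene symbol and per region, and the deposited MeDIP peak lists give each sample's own peaks with a score, a fold enrichment ratio and the −log10 of p and q. The score and ratio were not used in a result. Per the submitters' processing notes RNA reads went through STAR 2.3.0, MeDIP reads through BWA 0.7.5, Picard, MACS2 and bedtools, on hg19. The read counter and its use of strand are not given in the sources used here. All 18 value columns matched a sample by name, and 0 were left over.

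Counts were fitted with edgeR 4.0.16 (R 4.3.3; TMM, filterByExpr with a minimum of 10 counts, quasi-likelihood test, 1 model of group means over 9 libraries), with Benjamini-Hochberg adjustment over all features and calls under 0.05. DESeq2 1.42.0 was an alternative. The steps were checked on simulated data. Log2 fold changes are edgeR's, and the SE derives from the test statistic. For each ligand gene an exact permutation test (two-sided) was run on log2(CPM + 0.5). Intervals cover the spread between libraries or, where so said, counting error. Gene positions and lengths are from GENCODE 44 on GRCh37 (hg19), and promoters from RefSeq. Of the MeDIP regions the sequence of 1 is printed, and the others are not reported here. A window counts as shared when its 50 bases occur in the exons of another gene. No 2 RNA libraries of a group agreed within sampling noise (chi-square per degree of freedom 2.29 to 50.4).

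The ligand genes and lists were chosen with earlier results of these data known. Named were all 10 ligand genes, B2M, the up to 3 genes of highest RPKM in each other list, any called gene, and per ligand gene the region nearest the start and that of highest CPM. Alternatives were other scalings, tests, filters and lengths, only the groups compared, the replicate number as a block, and leaving out each library.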

Additional observations from a re-analysis of the deposited data

Results flagged for a closer look

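In the MeDIP region in an intron of ULBP2, all 3 TALE libraries were above the untreated mean of 0.931 CPM and all 3 dCas9 libraries were below it. The dCas9 libraries lay within the range of the untreated ones, and the TALE mean exceeded the dCas9 mean by 3.22 CPM. The difference was not tested, since the region held too few counts, and the share of all regions with such a pattern was not computed.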

How the results depend on the processing

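The count of ligand genes called was 0 in each of the 4 comparisons under every alternative run. These were RLE and upper quartile scaling, DESeq2, no filter and at least 10 counts in every library. Fits of only the groups compared, with the replicate block, and with each library left out were also among them. The count of MeDIP regions called was 0 as well under the fewer alternatives run for MeDIP. Those were RLE scaling, no filter, the replicate block and each library left out. For the ligand genes the lowest adjusted p over the alternatives, from edgeR each time, was 0.088 with TALE (CD58 without TALE replicate 3). It was 0.379 with dCas9, 0.125 between them and 0.316 for the silenced mean. Of 115, 116, 115 and 134 alternative fold changes, 13, 5, 2 and 10 changed sign, each where the value itself was smaller than its SE, and 0 otherwise. Counts over all genes moved more, from 3 with TALE, 4 with dCas9, 0 between them and 5 for the silenced mean. They were 9, 29, 0 and 36 by DESeq2, 74, 89, 77 and 79 without a filter, and 1, 2, 0 and 3 with at least 10 counts everywhere. Fitting only the groups compared gave 8 with dCas9. Leaving out 1 library gave 2 to 16 (16 without TALE replicate 3), 2 to 8 (8 without dCas9 replicate 1), 0 to 21 (21 without dCas9 replicate 1) and 2 to 33 (33 without TALE replicate 3). The cause was not tested. With the replicate block the counts were 3, 2, 0 and 4. RNA libraries that share a number had deviations correlated at -0.256 to 0.101. In 8 of 18 comparisons of a library with another group its own number correlated best. With 3 libraries a group, these values cannot decide whether libraries of the same number share a culture or batch. ULBP2, ULBP3 and the untested regions rest on few counts, so their values are uncertain. At the longest-transcript length untreated levels were 5.25 RPKM for MICA, 14.6 for MICB, 0.863 for PVR, 28.4 for PVRL2, 41.0 for CD58 and 8.70 for ICAM1. A window from 5 kb before the gene added 1 region at ULBP3 and 1 at NCR3LG1.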

Other observations

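CD96, a receptor of natural killer and T cells whose ligand is PVR, was itself counted in these K562 libraries and made up most of the summed natural killer marker signal. It had 34.5, 39.4 and 42.1 CPM in untreated cells, 19.2, 20.9 and 31.7 with TALE, and 24.0, 16.8 and 18.6 with dCas9. Every silenced library was below every untreated one, where 3.54% of all tested genes were free of overlap in either direction. CD96 differed by a log2 fold change of -0.69 (SE 0.18, edgeR adjusted p 0.362, DESeq2 adjusted p 0.145) with TALE and -0.96 (SE 0.18, edgeR adjusted p 0.1, DESeq2 adjusted p 0.00231) with dCas9. The silenced mean differed from untreated by -0.83 (SE 0.15), at an adjusted p of 0.0573 in edgeR and 0.00176 in DESeq2, so the call depends on the tool. The summed level of the 16 markers was 41.8 to 51.8 CPM in untreated cells, 23.1 to 39.4 with TALE and 24.0 to 32.5 with dCas9. The T and B cell sum (mostly CD3D) and the monocyte sum (mostly LYZ) overlapped between groups.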
